A study of Mus musculus with 8 samples.

Results

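Langerhans cells of the mouse tongue epithelium were picked out of 8 single-cell RNA-seq libraries by their transcripts, and 145 cells of 42550 barcodes met every limit. A cell had to hold 1000 to 5500 genes, at most 30000 UMIs (counted molecules) and at most 7% mitochondrial UMIs, which 25199 barcodes did. Among these, a Langerhans cell had at least 2 UMIs of Cd207 (langerin, the lectin that forms the Birbeck granule), at least 10 UMIs of Cd74 (the invariant chain of MHC class II), no Cd3e, fewer than 5 UMIs over C1qa, C1qb and C1qc, and under 0.5% of its UMIs from Krt5, Krt14, Krt15, Krt13 and Krt6a. Levels of these genes therefore describe the choice and carry no test. By library, N1 gave 24 cells, N2 47, E1 13, E2 13, Y1 16, Y2 21, EY1 5 and EY2 6.

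Langerhans cells are the antigen-presenting cells that live within stratified epithelia. They hold on to neighbouring keratinocytes through E-cadherin and EpCAM, take up antigen at the surface, and after activation lose these contacts, gain the chemokine receptor CCR7 and leave for the draining lymph node. In skin they arise from embryonic precursors and renew by local division under TGF-beta and the CSF1 receptor, while in the oral mucosa langerin-bearing cells come from circulating dendritic cell precursors and monocytes, so that more than one lineage meets under the same marker.

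All groups carried Krt14-CreERT, a tamoxifen-activated recombinase driven in basal keratinocytes, and LSL-rtTA, the doxycycline-dependent activator it releases; by the study's methods every mouse also carried the tetON_H2B-GFP reporter. N mice had no further transgene. E mice added tetON_E6-E7 (the oncogenes of human papillomavirus 16), Y mice added tetON_YAP1S127A (YAP that escapes inhibitory phosphorylation), and EY mice added both. Littermates aged 8 to 16 weeks received tamoxifen in the tongue and doxycycline chow, and epithelium was taken on day 15, dissociated and sorted for size and viability, with no sort for immune cells. The transgenes are made in Krt14-expressing basal cells and their progeny, so Langerhans cells were not the targeted cells. Mouse Yap1 had 1 UMI in 1 of the 145. The paper counted the transgenes on mm10 with their sequences added. The row of mouse Yap1 used here does not show whether a cell held the transgene. Each group had 2 libraries, labelled as 1 mouse each except N2, whose label carries 2 animal numbers.

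The libraries held 2916 to 8139 barcodes and 46483469 to 102427359 UMIs. The 145 Langerhans cells together held 2293497 UMIs, between 51458 in EY2 and 889966 in N2, and the median per cell ran from 7895 UMIs in EY2 to 21665 in E2. Any pair of libraries shared 2 to 19 barcodes, and 2 Langerhans cells had a barcode found in another library, though none was shared between 2 Langerhans cells. Y2 was the only library with Xist in these cells. E2 and Y2 stood apart in the MHC class II chain H2-Eb1, at 311 and 151 CPM (counts per 1e6 UMIs, scaled between libraries by TMM) against 4381 to 6897 CPM in the other 6 libraries. The same 2 libraries were low in C1q macrophages, at 563 and 186 CPM against 2378 to 5132 CPM, so the difference between E2 and Y2 and the rest was not limited to Langerhans cells.

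Most markers that the rule did not use went with the name, but those of conventional type 1 dendritic cells went against it. Epcam was found in 143 of 145 cells and H2-Aa (MHC class II alpha chain) in all 145, while Cldn1, a tight junction protein, was found in 128, Mfge8, a bridge to dying cells, in 122, Csf1r in 115, Ltc4s, which makes leukotriene C4, in 101, and the pan-leukocyte gene Ptprc in 134. In Cd3e+ cells, whose median depth was 5586 UMIs, 5.40% held Epcam, 17.1% H2-Aa and 0.354% Cd207, a measure of what free RNA and misassigned cells can give. The 9 markers of conventional type 1 dendritic cells summed to 956 to 3164 CPM per library, with a mean of 1600 CPM above the 1184 CPM of other dendritic cells, while the 8 of type 2 had a mean of 518 against 1530 CPM. The name Langerhans cell therefore stands for cells that met the rule, whatever their lineage. Of 7 markers of B or mast cells, 6 were at 0 and only Kit was present. The 9 T cell markers summed to 0 to 56.0 CPM per library, against 6135 CPM in Cd3e+ cells, and the 11 macrophage or monocyte markers to 176 to 2171 CPM with the highest value in E1, against 11977 CPM in C1q macrophages.

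**Figure D1:**
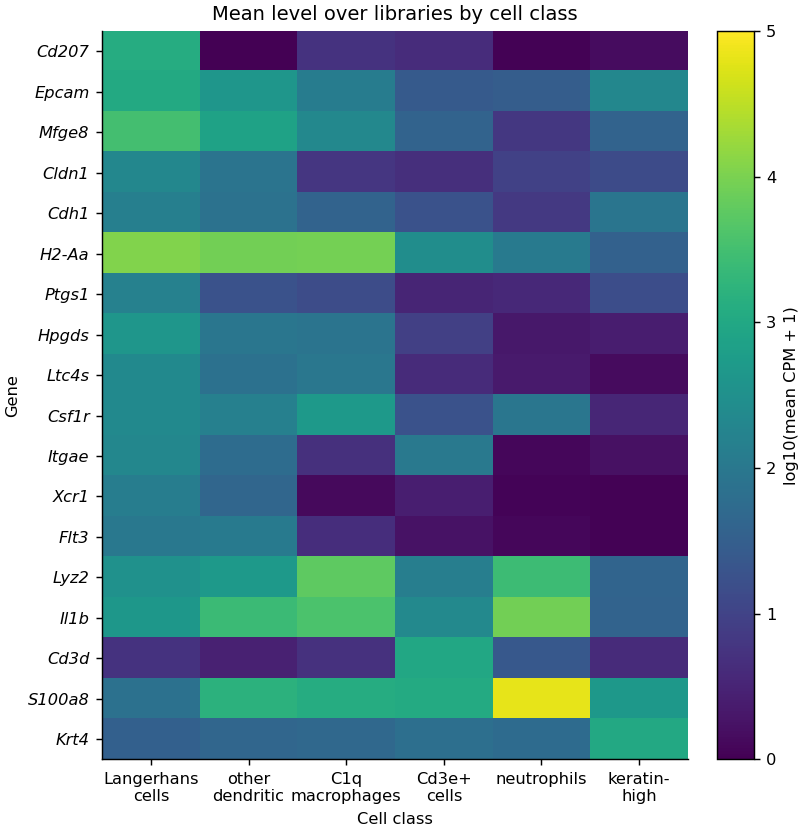
Mean level of 18 genes in 6 cell classes, as log10 of the mean CPM over libraries plus 1 (colour scale). Langerhans cells share H2-Aa with macrophages and other dendritic cells but have the highest Cd207, Epcam, Mfge8, Cldn1 and Ptgs1, and low Lyz2 and Il1b.

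Neutrophil transcripts were raised in both EY libraries, and keratinocyte transcripts in EY2. The 10 neutrophil markers summed to 0 to 105 CPM in the 6 libraries of N, E and Y but to 603 CPM in EY1 and 374 CPM in EY2, with Camp and Mmp8 at 0 everywhere; neutrophils themselves held 133226 CPM. The 14 keratinocyte markers summed to 150 to 456 CPM in 7 libraries, EY1 among them at 312 CPM, and to 917 CPM in EY2, against 19128 CPM in keratin-high cells. EY1 also held 850 CPM of 4 globin genes, against 6.70 to 115 CPM elsewhere. The part of these transcripts in the results for EY was not tested.

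The Cd207 and Cd74 limits cut through few cells, and the C1q limit through many. Of the 145 cells, 10 had exactly 2 Cd207 UMIs, and 9 of them held Epcam; 23 further cells met every other limit with exactly 1 Cd207 UMI, and 16 of those held Epcam. The median member had 15 Cd207 UMIs and the highest 109, the lowest Cd74 count was 45, and 119 members had no C1q UMI at all. No cell failed on Cd74 alone, 3 failed on Cd3e, 11 on keratin and 11 on the upper limits of depth, 10 of them in N2.

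By contrast, 126 cells met every limit but that on C1q, nearly as many as the Langerhans cells themselves. N1 held 38 of them, N2 37, E1 21, E2 10, Y1 11, Y2 4, EY1 1 and EY2 4. Averaged over the 5 libraries with at least 10 of them, they held 1031 CPM of Cd207 against 1404 CPM in Langerhans cells and 6.50 CPM in C1q macrophages, and 102 of 126 held Epcam. Mfge8 (2243, 2896 and 92.3 CPM in the same order), Hpgds (548, 573 and 106 CPM) and Ptgs1 (196, 162 and 12.7 CPM) were also near the Langerhans cell level. The membrane protein Ms4a7 (675, 0.869 and 918 CPM), Apoe (2972, 25.1 and 8565 CPM), Csf1r (484, 258 and 526 CPM) and Adgre1, which encodes F4/80 (149, 35.8 and 229 CPM), lay nearer to macrophages. Itgae (5.55, 169 and 1.40 CPM), Xcr1 (0, 92.4 and 0.464 CPM) and Flt3 (26.5, 92.9 and 4.10 CPM), all of the dendritic cell lineage, were low. Their median depth was 11857 UMIs. Whether a cell of this kind is one cell or 2 captured together was not tested. The limit on C1q thus decides whether Cd207 cells with a macrophage profile are counted, and both counts are given for the shares below.

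Set beside all other Ptprc+ keratin-low cells, the 20 genes of highest ratio among 2479 genes at 50 CPM or more were led by Xcr1, the XCL1 receptor of cross-presenting dendritic cells, at 132 against 3.45 CPM (38.2 times). They included the sulfotransferase Sult1a1 at 154 against 4.84 CPM (31.8 times), the elongation factor Tcea3 at 84.7 against 4.06 CPM (20.8 times), Cldn1 at 208 against 13.3 CPM (15.6 times), Mfge8 at 3140 against 218 CPM (14.4 times), the cyclooxygenase Ptgs1 at 154 against 13.3 CPM (11.6 times), the cytokine receptor Flt3 at 101 against 8.77 CPM (11.6 times) and the surface protein Plet1 at 543 against 48.0 CPM (11.3 times). These means hide wide ranges over libraries for Plet1, from 23.8 to 1732 CPM, and Tcea3, from 14.7 to 278 CPM. In N1 and N2, Plet1 was at 23.8 and 45.7 CPM, below the 215 and 202 CPM of other dendritic cells there. Since the cells were chosen on their transcripts, this profile is a description without a test. Against other dendritic cells the lead of Ptgs1 was 9.10 times, that of H2-M5, a non-classical MHC class I gene, 8.03 times and that of Mfge8 4.06 times, whereas Flt3 (0.934 times) and the chemokine Ccl22 (0.648 times) were no higher.

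Langerhans cells were not of one kind. Xcr1 or Clec9a, the pair that marks conventional type 1 dendritic cells, was found in 62 of 145 cells (42.8%): 8 of 24 and 22 of 47 for N, 6 of 13 and 1 of 13 for E, 9 of 16 and 11 of 21 for Y, and 1 of 5 and 4 of 6 for EY. E2 was thus low where E1 was not. In cells that should lack Xcr1, the share with a UMI was 0.667% of Cd3e+ cells, 0.104% of keratin-high cells (median 15344 UMIs) and 0.257% of neutrophils (median 7825 UMIs), and depth did not separate the kinds, with medians of 15601 UMIs with and 15332 UMIs without these genes. Itgae (CD103) was found in 93 cells, Itgam (CD11b) in 33, both in 17 and neither in 36.

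The 62 cells had the other genes of type 1 dendritic cells as well. Pooled over libraries, Irf8, their lineage factor, stood at 940 CPM in cells with Xcr1 or Clec9a and 300 CPM in cells without, Batf3, its partner, at 110 and 44.0 CPM, the adhesion molecule Cadm1 at 128 and 17.3 CPM, Wdfy4, needed for cross-presentation, at 226 and 30.7 CPM, Naaa at 315 and 36.2 CPM, and Itgae at 290 and 92.8 CPM. The 83 other cells were higher in several genes of Langerhans cells, monocytes and type 2 dendritic cells. Sirpa was at 0.979 CPM with and 61.3 CPM without, Irf4 at 1.96 and 33.0 CPM, Csf1r at 93.0 and 385 CPM, Itgam at 8.81 and 44.8 CPM, Mfge8 at 771 and 4886 CPM and Ltc4s at 66.6 and 318 CPM. Each of these 12 genes leaned the same way in 5 of 5 libraries with at least 5 cells of both kinds. Epcam (983 and 1303 CPM) and Hpgds (327 and 667 CPM) were likewise lower with Xcr1 or Clec9a in all 5.

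Adgre1, at 67.6 and 15.7 CPM, and Lyz2, at 604 and 241 CPM, went against this order. They were higher in cells with Xcr1 or Clec9a, in 5 and 4 of the 5 libraries. Flt3 (137 and 70.7 CPM) and Cldn1 (229 and 207 CPM) were also higher in cells with Xcr1 or Clec9a, each in 4 of the 5 libraries. Cd207 itself, which both kinds had to express, was level at 1229 and 1231 CPM, as were Runx3 (286 and 282 CPM), a factor Langerhans cells depend on, and Id2 (566 and 546 CPM). The cells were split by their own transcripts, so these are descriptions. Cells chosen by this rule thus included an Xcr1+ Irf8-high kind and a Sirpa+ Csf1r+ Mfge8-high kind.

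**Figure D2:**
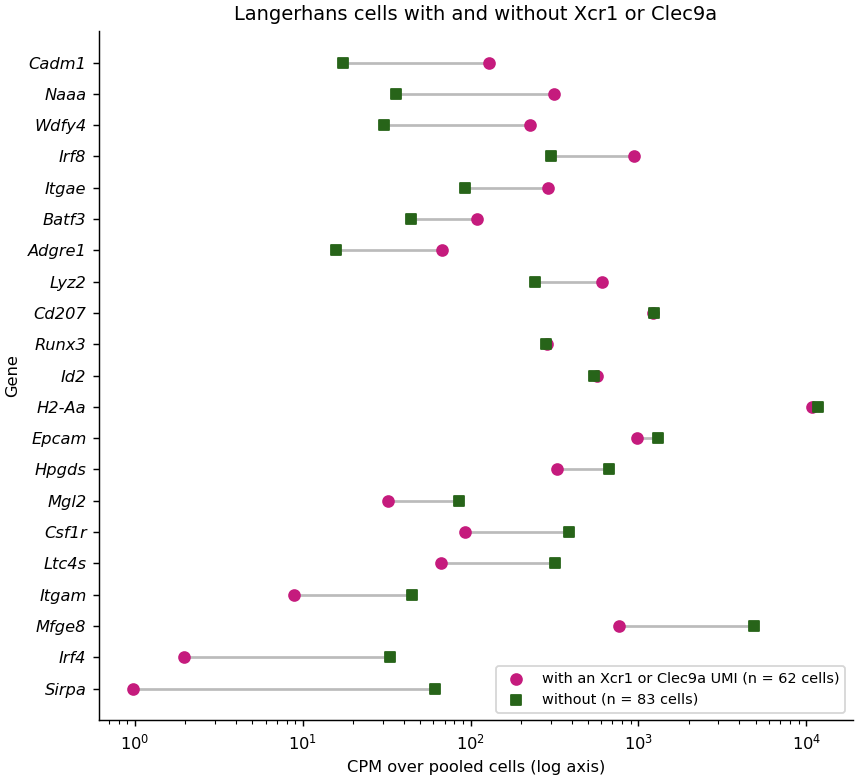
Pooled CPM (log axis) of 21 genes in the 62 Langerhans cells with an Xcr1 or Clec9a UMI (circles) and the 83 without (squares), joined by a line for each gene. Cadm1, Naaa, Wdfy4, Irf8 and Itgae lie to the right in the former, Sirpa, Irf4, Mfge8, Itgam, Ltc4s and Csf1r in the latter, and Cd207, Runx3 and Id2 coincide.

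The first comparison asks whether Langerhans cells took a different share of the immune cells where the epithelium carried YAP1S127A or E6-E7. Of Ptprc+ keratin-low cells they made up 4.10% in N1 (24 of 586, exact 95% binomial interval 2.64 to 6.03%, which covers counting error only) and 3.36% in N2. The E libraries had 1.55 and 1.19%, the Y libraries 0.417 and 1.71%, and the EY libraries 0.259 and 0.661%. N1 and N2 held the highest shares of all and EY1 the lowest, but Y2 lay above both E libraries. The 4 libraries with YAP1S127A averaged 0.762% ± 0.653 (SD, n = 4) and the 4 without 2.55% ± 1.40 (SD, n = 4), a difference of -1.79 percentage points that did not pass (two-sided test by exact permutation of the 70 labellings, p = 0.0857, and 0.400 when adjusted over 8 share tests). For E6-E7 the means were 0.915% ± 0.570 and 2.40% ± 1.65 (SD, n = 4 each), or -1.48 points apart (by exact permutation, p = 0.171 and adjusted 0.400). The smallest p this design allows is 0.0286.

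The denominator matters, because other immune cells were far from constant: Ptprc+ keratin-low cells other than Langerhans cells numbered 562 to 1539 in 7 libraries and 3819 in Y1, and neutrophils 987 in EY1 and 403 in EY2 against 1 to 427 elsewhere. Of all cells inside the limits on genes, UMIs and mitochondrial share, Langerhans cells made up 0.566 and 2.54% in N, 0.262 and 0.855% in E, 0.296 and 0.918% in Y and 0.275 and 0.193% in EY. On this base the difference was -0.636 points for YAP1S127A (exact permutation p = 0.314) and -0.684 points for E6-E7 (p = 0.171), and N2, E2 and Y2 held larger shares than N1, E1 and Y1. Keratin-high cells numbered 432, 566 and 1039 in the former and 3524, 4179 and 1403 in the latter.

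Counted with no limit on C1q, the shares of Ptprc+ keratin-low cells became 9.90 and 6.12% in N, 4.65 and 2.28% in E, 0.704 and 2.07% in Y and 0.324 and 0.925% in EY. All 4 libraries with YAP1S127A then lay below all 4 without, with their mean lower (-4.73 points, by exact permutation p = 0.0286, the smallest possible, and adjusted 0.229), while E6-E7 gave -2.66 points (p = 0.314). This count was added after the 126 cells had been seen.

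**Figure D3:**
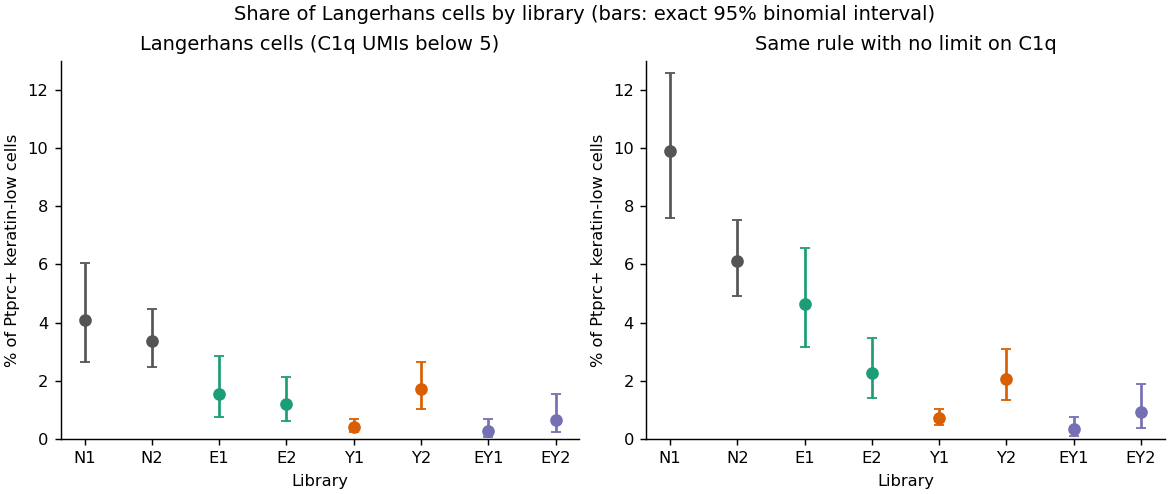
Langerhans cells as a percentage of Ptprc+ keratin-low cells in each of 8 libraries (points) with exact 95% binomial intervals (bars), by the rule (left) and with no limit on C1q (right). N1 and N2 are highest in both panels, and on the right Y1, Y2, EY1 and EY2, at 0.324 to 2.07%, all lie below the lowest library without YAP1S127A, at 2.28%.

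Cell division, by which Langerhans cells renew in place, was approached through 20 cell cycle genes. After each cell was thinned to 2000 UMIs, a cell with at least 2 UMIs over these genes was counted as cycling. Unthinned, Hmgb2 of this list was found in 135 of 145 cells and Pcna in 88. The share is thus one of cells with such UMIs, and how far it reflects division was not tested. The 6 libraries of N, E and Y had at least 10 members and gave 41.7 and 36.2% in N, 23.1 and 38.5% in E and 56.3 and 38.1% in Y (unthinned, 83.3 to 100%). Neither the YAP1S127A difference of 12.3 points (exact permutation p = 0.333) nor that of E6-E7 of -12.3 points (p = 0.400) passed, with 0.0667 the smallest possible p. Each turned its direction without the Xcr1 or Clec9a cells, to -26.2 and 4.92 points. That setting left only N1, N2, E2 and Y2 with at least 10 members, so Y2 or E2 alone stood against the others. Mki67, carried by dividing cells, had a UMI in 38 of 145 cells and Top2a in 29; Mki67 also had a UMI in 19.1% of Cd3e+ cells and 7.09% of neutrophils.

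The second comparison asks which genes of Langerhans cells changed when the keratinocytes around them carried a transgene. UMIs were summed per library and fitted with edgeR over the 6 libraries with at least 10 Langerhans cells, all of N, E and Y. With no EY library in this fit, the YAP1S127A effect is Y against N and the E6-E7 effect is E against N. A gene was called at a Benjamini-Hochberg adjusted p under 0.05 over 3896 genes. Y against N called 5 genes, all higher (0.128%), with 284 at an unadjusted p under 0.05. EY1 and EY2 took no part in that fit, so their values for the 5 genes come from libraries the calls did not use.

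Plet1, a GPI-anchored surface protein of epithelial progenitors and some dendritic cells, rose most firmly. It stood at 23.8 and 45.7 CPM in N, 174 and 114 CPM in E and 1024 and 450 CPM in Y. Y1 and Y2 were both above the other 4 libraries, and 14 of 16 and 17 of 21 cells held it there, against 6 of 24 and 10 of 47 cells in N. The log2 difference of Y against N was 4.23 ± 0.46 (SE, edgeR adjusted p = 0.00486). In the libraries left out of the fit it was 1732 CPM in EY1 and 861 CPM in EY2, and all 11 EY cells held it.

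Cish, a feedback inhibitor of cytokine receptors that signal through STAT5, stood at 15.8 and 3.43 CPM in N, 26.8 and 18.3 CPM in E and 169 and 101 CPM in Y, a log2 difference of 4.27 ± 0.56 (SE, edgeR adjusted p = 0.0116). In Y, 15 of 16 and 11 of 21 cells held it, no cell with more than 9 UMIs, so the rise was spread over cells rather than carried by one. EY1 and EY2 had 86.1 and 93.6 CPM, again above every N and E library. The gene model lies at chr9:107296026-107302784 on the plus strand (mm10), and the RefSeq start used here lies within it, at position 107296659. In the window of 300 bases around the RefSeq start (GRCm38.p6, 250 before and 50 after), 2 matches to TTCNNNGAA, the letters recognised by STAT proteins and the same on both strands, follow each other at chr9:107296659-107296678. They are shown because, of the 8 called genes whose windows were searched, Cish was the one with such matches, and the capitals mark them:

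Cish start: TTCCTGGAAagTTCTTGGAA

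TTCNNNGAA was found in 8.30% of 32841 such windows, and in none of those of Plet1, Tm4sf5, Tcea3, Areg, Bcl2a1a, Bcl2a1b and Il4i1. A second motif, GGAATG, the letters recognised by the TEAD partners of YAP, was searched on both strands. It was found once in the window of Cish, in none of the other 7 and in 14.7% of all windows. A match is a description of the letters and says nothing of what binds there.

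Tm4sf5, a tetraspanin-like membrane protein, stood at 7.92 and 6.86 CPM in N, 13.4 and 33.0 CPM in E and 124 and 108 CPM in Y, a log2 difference of 3.93 ± 0.45 (SE, edgeR adjusted p = 0.00486). It was concentrated in fewer cells, with 8 of 16 in Y1 and 5 of 21 in Y2, and in EY it was 53.8 and 431 CPM, with 21 of the 23 UMIs of EY2 in 1 cell. Tcea3 stood at 47.5 and 17.1 CPM in N, 26.8 and 14.7 CPM in E and 278 and 184 CPM in Y (log2 difference 3.05 ± 0.46, SE, edgeR adjusted p = 0.0266). Here EY did not follow Y: EY1 and EY2 had 53.8 and 56.2 CPM, close to the highest N library.

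Areg, the EGF receptor ligand amphiregulin, was called (log2 difference 6.71 ± 0.94, SE, edgeR adjusted p = 0.0165) on 3 cells. Y1 held 63 UMIs, all in 1 cell, and Y2 held 16 in 2 cells, against 1 UMI each in N2 and E1. The ratio of Y to N and E together was 103 with a counting interval of 27.7 to 869, which takes no account of the spread between cells. In EY1, 12 UMIs lay in 1 cell, and EY2 had none.

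**Figure D4:**
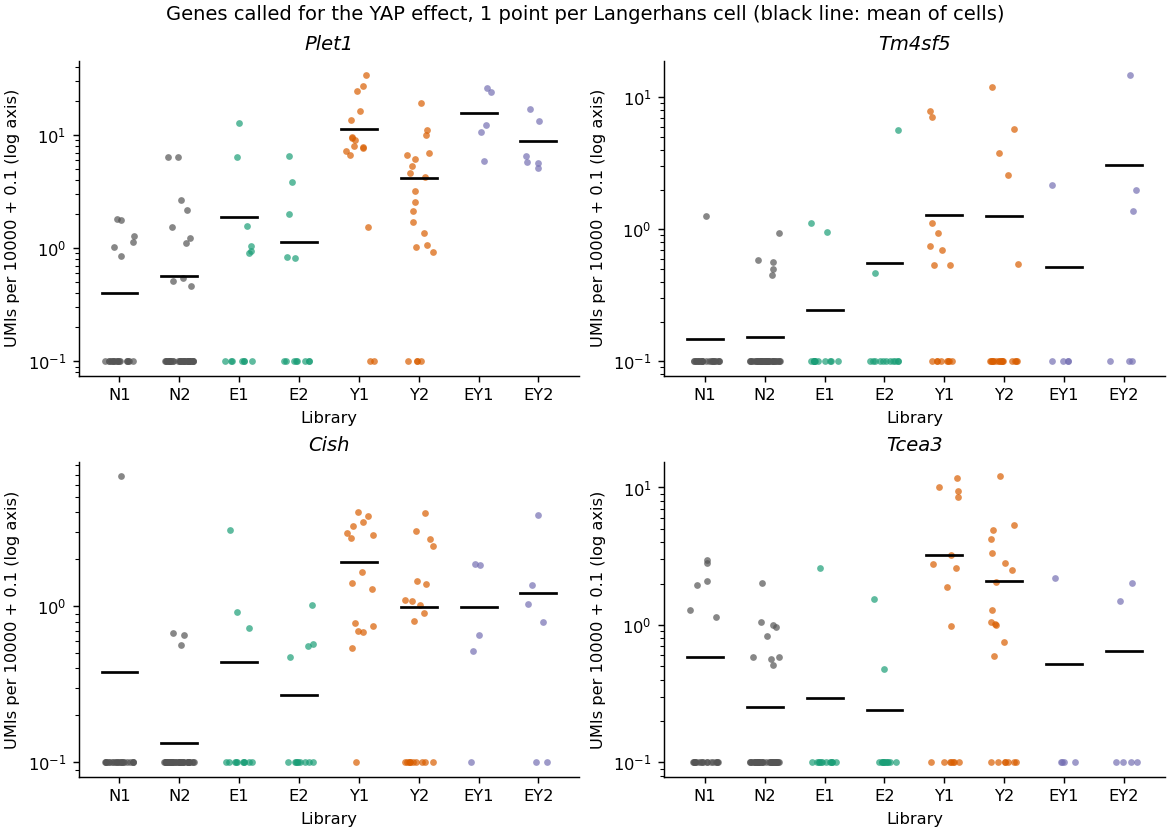
Depth-scaled UMIs of Plet1, Tm4sf5, Cish and Tcea3 in each Langerhans cell (points; log axis after a small constant was added so that 0 can be drawn) with the mean over cells (black line), by library. Plet1 and Cish are found in most cells of Y1 and in all or most cells of EY1 and EY2, whereas Tcea3 has its highest means in Y1 and Y2.

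Of the 5 genes, only Plet1 kept its call under all 12 alternative settings and in all 6 fits that left out 1 library. Without N2, the library with the most Langerhans cells, Tm4sf5, Cish, Areg and Tcea3 were no longer called, and Cish and Areg were also lost without Y1.

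The same genes were read in the other cell classes. In C1q macrophages Cish stood at 8.07 and 4.88 CPM in N, 28.6 and 27.5 CPM in E, 117 and 90.7 CPM in Y and 85.9 and 39.5 CPM in EY, much as in Langerhans cells, and in other dendritic cells at 10.4 to 58.2 CPM in N and E and 113 to 197 CPM in Y and EY. In Cd3e+ cells it was 111 to 211 CPM with no such order. Plet1 in macrophages was 0 and 3.49 CPM in N, 38.5 and 11.2 CPM in E, 108 and 201 CPM in Y and 30.2 and 16.9 CPM in EY. In other dendritic cells Plet1 was 0 to 215 CPM in N and E, 923 and 495 CPM in Y and 201 and 399 CPM in EY, so that Y was highest there too. Tcea3 and Tm4sf5 stayed at or below 8.24 and 22.0 CPM in macrophages of every library. In other dendritic cells, however, Tcea3 was 0 to 2.97 CPM in N and E against 34.3 and 113 CPM in Y, with 27.2 and 0 CPM in EY. Tm4sf5 was there 0 to 29.1 CPM in N and E, 42.2 and 14.3 CPM in Y and 59.8 and 174 CPM in EY, with Y and E overlapping. The difference between Langerhans cells and other dendritic cells was not tested.

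The difference between Langerhans cells and C1q macrophages was tested in the same 6 libraries, as the YAP1S127A effect in Langerhans cells minus that in macrophages over 7387 genes, of which 2 were called (0.0271%). Areg was one, with a log2 difference of 6.30 ± 0.79 (SE, edgeR adjusted p = 0.00611), resting on the 3 cells above. The other was Gpr171, a peptide receptor, at -2.72 ± 0.40 (adjusted p = 0.0190). It stood at 135 and 220 CPM in N, 174 and 128 CPM in E and 195 and 299 CPM in Y in Langerhans cells, but at 13.5 and 25.8 CPM, 66.0 and 34.4 CPM and 174 and 175 CPM in macrophages, so that the macrophages stayed below Langerhans cells in all 6 libraries and came nearest to them in Y. Without N2 this call was lost. On the log2 scale, Cish (0.18) and Plet1 (-1.71) showed no called difference between the cell types (edgeR adjusted p = 1 and 0.887), and Tm4sf5 (3.01 ± 0.69, SE) and Tcea3 (3.37 ± 1.25, SE) leaned towards Langerhans cells without passing (edgeR adjusted p = 0.240 and 0.590).

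E against N called 5 genes (0.128%), 4 higher (0.103%) and 1 lower (0.0257%), with 253 at an unadjusted p under 0.05. Bcl2a1a, which encodes the survival factor A1, stood at 35.7 and 25.2 CPM in N, 248 and 256 CPM in E and 115 and 108 CPM in Y, a log2 difference of 3.10 ± 0.33 (SE, edgeR adjusted p = 0.00473). E1 and E2 exceeded the other 4 libraries of the fit, and EY1 and EY2 had 398 and 112 CPM. Bcl2a1a was found in 7 cells of each E library. Those with a Ccr7 UMI held 14 of its 37 UMIs in E1, and 27, 6 and 30 of its 70 in E2. Bcl2a1b stood at 206 and 101 CPM in N, 563 and 726 CPM in E and 421 and 436 CPM in Y (log2 difference 2.12 ± 0.34, SE, edgeR adjusted p = 0.0431), with 549 and 168 CPM in EY. The top cell held 33 of its 84 UMIs in E1 and 73 of its 198 in E2. The 2 genes are near-identical copies on chromosome 9, so the counting may have moved reads between them and their separate levels are uncertain. The like-named Bcl2a1d stood at 55.5 and 18.3 CPM in N, 46.9 and 202 CPM in E and 28.7 and 112 CPM in Y, so the groups overlapped. The call of Bcl2a1a was lost without N2, and that of Bcl2a1b without N2 or E2. With no limit on C1q, EY2 reached 10 members and entered the fit, so the E6-E7 effect there was no longer E against N alone. For that effect neither gene was called, with log2 differences of 0.93 and 0.26.

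Zfp36l2, an RNA-binding protein that shortens the life of mRNAs with AU-rich ends, fell. It stood at 741 and 704 CPM in N, 221 and 267 CPM in E and 294 and 320 CPM in Y, a log2 difference of E against N of -1.58 ± 0.25 (SE, edgeR adjusted p = 0.0431). N1 and N2 were far above the rest, and the libraries left out followed, with 86.1 CPM in EY1 and 168 CPM in EY2. Y against N was -1.27 ± 0.24 (adjusted p = 0.0829), and 71 of 71 N cells held the gene against 20 of 26 in E. The call was lost without any one of N1, N2, E1 or E2. In C1q macrophages N1 and N2 had 342 and 530 CPM and the other 6 libraries 196 to 420 CPM, so the groups overlapped there. In other dendritic cells N1 and N2 had 422 and 555 CPM against 78.1 to 332 CPM in the other 6 libraries, and in Cd3e+ cells 809 and 1039 CPM against 201 to 618 CPM, so that N was highest in both, as in Langerhans cells.

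The other 2 called genes, Ccr7 and Il4i1, were also concentrated in few cells. Ccr7 had no UMI in the 71 cells of N, 17 and 177 UMIs in 1 and 3 cells of E, 23 and 38 UMIs in 2 and 2 cells of Y, 6 UMIs in 1 cell of EY1 and none in EY2. In E2, 123 of the 177 UMIs lay in 1 cell. Pooled over UMIs, the level in E was 177 times a floor of 3 UMIs over both N libraries. This ratio takes UMIs as independent, though those of E came from 4 cells, so it is not a lower bound on the difference. The edgeR adjusted p of Ccr7 was 0.0177. Il4i1, an amino acid oxidase that dampens T cells, had 1 and 1 UMIs in N, 15 and 167 in E and 36 and 20 in Y (edgeR adjusted p = 0.0177), with 92 of the 167 in 1 cell, and its call was lost without N2. Their libraries overlapped between E and Y. As a share of thinned cells, Ccr7+ cells were 0 and 0% in N, 7.69 and 15.4% in E and 6.25 and 9.52% in Y, which is 7.60 points more with E6-E7 and did not pass (by exact permutation, p = 0.200 and adjusted 0.400), and 2.12 points more with YAP1S127A (p = 0.800). None of 24 and 47 cells in N allows, by the exact interval, up to 14.2% and 7.55% of cells with a Ccr7 UMI at the thinned depth, which limits detection and not expression. Ccr7 had a UMI in 0.246% of keratin-high cells.

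Several genes of maturing, emigrating Langerhans cells were higher in the 9 Ccr7+ cells pooled, though not in each of them. Of the 9, 3 held Fscn1, 8 held Ccl22 and 7 held Il4i1, and 1 cell of Y1, with 1 Ccr7 UMI, held none of the 3. Pooled, they held 518 CPM of Fscn1, the actin bundler of migrating dendritic cells, against 0.473 CPM in the 136 others, though 87 UMIs came from 1 cell of E2. Ccl22 was at 2936 against 53.9 CPM, Il4i1 at 1265 against 6.62 CPM, Samsn1 at 680 against 17.5 CPM, Cacnb3 at 189 against 0.473 CPM, Relb at 234 against 33.1 CPM, Cd83 at 947 against 319 CPM, and Cd274, which encodes PD-L1, at 134 against 4.73 CPM. The maturation genes Marcksl1, at 128 against 130 CPM, and Cd200, at 0 against 1.42 CPM, were not higher. Epcam was lower, at 462 against 1219 CPM, Cd207 differed little, at 1059 against 1245 CPM, and Cd86 was at 351 against 333 CPM. The 9 cells were picked on Ccr7, and no test was made.

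EY against N rests on 5 and 6 Langerhans cells, and was fitted after the planned limit of 10 cells per library had left out both EY libraries. With all 8 libraries, 23 of 3971 genes were called (0.579%), 16 higher and 7 lower, and 448 were at an unadjusted p under 0.05. Plet1 was again high, with a log2 difference of 5.08 ± 0.51 (SE, edgeR adjusted p = 0.000282), and Tm4sf5 (4.81 ± 0.83) and Cish (3.65 ± 0.73) were called as in Y. Ramp3, which carries the adrenomedullin receptor to the surface, rose by 4.68 ± 0.72 from 3.96 and 9.15 CPM to 312 and 74.9 CPM, in 4 of 11 cells. In EY1, 16 of its 29 UMIs lay in 1 cell, and in EY2 all 4 did. Without N2 or EY1 the call of Ramp3 was lost. Ifitm1, an interferon-induced membrane protein, rose by 7.66 ± 0.98, from 0 and 16.0 CPM to 3142 and 1722 CPM, in 5 of 11 cells, with 193 of 292 and 90 of 92 UMIs in 1 cell of each library. Its level in neutrophils was 2.38 times that in the EY Langerhans cells, and the called gene S100a8, found in 10 of 11 EY cells, stood 454 times higher in neutrophils than in these cells.

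The falls in EY were of genes that most N cells held. Zfp36l2 fell by 2.60 (log2 -2.60 ± 0.36, SE, edgeR adjusted p = 0.00568). Anxa1, a binder of phospholipids that quiets inflammation, fell from 741 and 1053 CPM in N to 247 and 112 CPM in EY (-2.25 ± 0.36, adjusted p = 0.0134). Hpgds, the prostaglandin D2 synthase, fell from 713 and 630 CPM to 247 and 93.6 CPM (-1.89 ± 0.38, adjusted p = 0.0473), with E at 563 and 557 CPM and Y at 373 and 252 CPM in between. Pak1, a kinase of the cytoskeleton (-2.09 ± 0.42), Atf3, a stress-induced factor (-1.98 ± 0.40), the filament protein Vim (-1.62 ± 0.27) and the membrane protein Emp3 (-1.80 ± 0.31) were the other 4. Plet1 and AA467197 were called in each of the 8 fits that left out 1 library and under all 8 alternatives, while Atox1, Rap2a, Cdkn1b, Atf3, Pak1, Ifitm3 and Ass1 were lost on leaving out any one of the 4 libraries of N and EY. AA467197 lay in 6 of 11 EY cells, with 15 of 36 UMIs of EY1 and 8 of 9 of EY2 in 1 cell each. Its level in C1q macrophages was 5.55 times that in the EY Langerhans cells.

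When the 8 libraries were fitted with 1 term for each transgene, the YAP1S127A effect, now Y and EY against N and E, called 21 genes of 3489 (0.602%), among them all 5 of the 6-library fit. Among the 13 higher ones were Mif, a cytokine and hypoxia target, at 143 and 113 CPM in N, 80.4 and 161 CPM in E, 482 and 310 CPM in Y and 323 and 337 CPM in EY (log2 difference 1.53 ± 0.26, edgeR adjusted p = 0.0241), and Id1, a target of BMP signals, at 59.4 and 53.7, 60.3 and 18.3, 329 and 202, and 161 and 93.6 CPM in the same order (2.12 ± 0.34, adjusted p = 0.0181). In both, the 4 libraries with YAP1S127A lay above the 4 without. The 8 lower ones included Hpgds (-1.32 ± 0.25), Anxa1 (-1.36 ± 0.25) and Emp3 (-1.26 ± 0.26). For E6-E7 the same fit called 2 genes (0.0573%), AA467197 higher and Zfp36l2 lower. AA467197 had 3 UMIs in 1 cell of E1 and 12 UMIs in 2 cells of E2. Mif was high with YAP1S127A in macrophages as well, at 536 to 1001 CPM against 339 to 488 CPM. Hpgds was low with YAP1S127A in macrophages too, at 15.6 to 91.0 CPM against 91.5 to 167 CPM. In other dendritic cells it was at 10.9 to 69.4 CPM against 72.7 to 180 CPM.

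The interaction, EY minus E minus Y plus N, called 3 genes, all lower than the sum of the log2 effects (0.0755%). They were Il4i1 (-11.08 ± 1.62), Ccl22 (-8.92 ± 1.34) and Ccr7 (-11.22 ± 1.75, all log2 ± SE, edgeR adjusted p = 0.0287, 0.0287 and 0.0407), 3 genes that were high in the pooled Ccr7+ cells. With 2 Il4i1 UMIs and no Ccr7 UMI in N, the size of these 2 values depends on counts at or near 0. Ccl22, a chemokine that draws CCR4-bearing T cells, stood at 47.5 and 82.3 CPM in N, 636 and 1125 CPM in E, 76.6 and 468 CPM in Y and 10.8 and 0 CPM in EY. Few cells made the levels of E and Y. Ccr7+ cells held 82 of 95 Ccl22 UMIs in E1, and 202, 32 and 64 of 307 in E2. In Y they held 23 of 24 in Y1, and 85 and 38 of 130 in Y2.

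Lists of genes by function were then counted by the libraries of each arm, with each count read against all genes. Of 14 measured genes of hypoxia and glycolysis, 8 were higher in both Y libraries than in all 4 N and E libraries (Eno1, Hk2, Gapdh, Ldha, Aldoa, Bnip3, Mif and Pgk1) and none was lower, where 8.44% of all genes were higher and 8.86% lower. Their median log2 difference was 0.50 beside -0.01 over all genes, and none was called. Ldha, for example, stood at 452 and 488 CPM in N, 422 and 473 CPM in E and 654 and 648 CPM in Y. Summed, the list gave 2607 and 2775 CPM in N, 2901 and 2756 CPM in E, 4317 and 4260 CPM in Y and 5089 and 4156 CPM in EY, so that the 4 libraries with YAP1S127A were apart from the 4 without, the EY libraries included. In EY against N, 12 of 16 were higher, beside 20.1% of all genes.

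Immediate early genes, which encode AP-1 and related factors, leaned the other way. Of 17 measured, none was called in Y or E, with medians of -0.66 and -0.39, and in EY against N Atf3 fell and 8 of 17 lay below N (Atf3, Nr4a2, Fosb, Zfp36, Junb, Fos, Nr4a1 and Dusp1) beside 23.6% of all genes. The sums were 12749 and 13480 CPM in N and 4788 to 10680 CPM in the other 6 libraries.

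Interferon-stimulated genes leaned up with E6-E7 without any being called. Of 10 measured, 4 lay above N and Y in both E libraries (Zbp1, Usp18 and Bst2 among them) and none below, beside 8.09% and 7.98% of all genes, with a median of 1.28 beside -0.03 over all genes. The sums were 487 and 785 CPM in N, 2961 and 1268 CPM in E, 986 and 540 CPM in Y and 1775 and 2284 CPM in EY. MHC class I genes had a median of 0.42 in E, with 6 of 12 above N and Y (B2m, Calr, Psmb10, Tapbp, H2-K1 and H2-D1) and sums of 10586 and 12176 CPM in E against 7072 to 7916 CPM in N and Y and 6359 and 6946 CPM in EY. H2-K1, for example, was at 1185 and 1147 CPM in N, 1936 and 1916 CPM in E, 1212 and 1048 CPM in Y and 699 and 1292 CPM in EY. None passed the test.

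**Figure D5:**
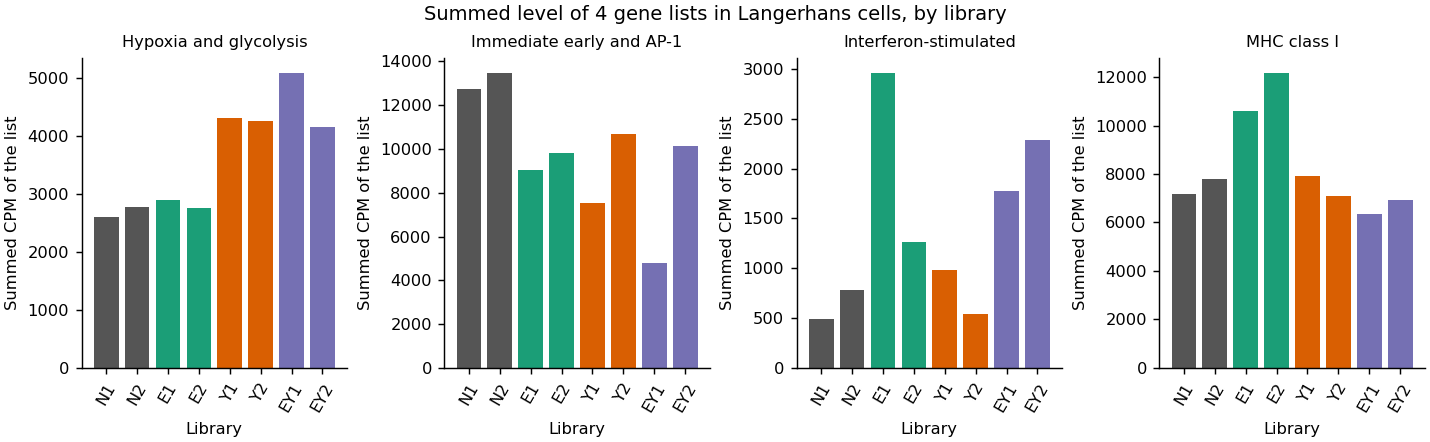
Summed CPM of 4 gene lists in the Langerhans cells of each of 8 libraries (bars from 0). Hypoxia and glycolysis genes separate Y1, Y2, EY1 and EY2 at 4156 to 5089 CPM from N and E at 2607 to 2901 CPM, MHC class I genes are highest in E1 and E2, interferon-stimulated genes vary most within E, and immediate early genes are highest in N1 and N2.

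No MHC class II or identity gene was called. Of 11 MHC class II genes none was called in Y, E or EY, with medians of -0.25, -0.09 and -0.04, and H2-Aa ranged from 8410 to 12858 CPM over the 8 libraries. Of 20 identity and adhesion genes 18 were tested in Y and in E and 17 in EY, and none was called. Epcam ranged from 393 CPM in EY2 to 1754 CPM in Y2 and Cdh1, E-cadherin, from 96.8 to 176 CPM, and Runx3 and Itgae lay higher, and Spi1, Cebpa and Itgam lower, in both Y libraries than in the 4 of N and E. These 2 and 3 genes of 18 stand beside 8.44% and 8.86% of all genes. Itgam was found in 7 of 24 and 17 of 47 cells in N, 1 and 2 of 13 in E, 2 of 16 and 2 of 21 in Y, and 2 of 5 and 0 of 6 in EY, a difference in cells that was not tested. In the eicosanoid list, Hpgds and Alox5, the 5-lipoxygenase, were below N and E in both Y libraries (2 of 8 tested, beside 8.86% of all genes). Of the list, Hpgds alone was called, in EY against N and in the YAP1S127A effect over 8 libraries.

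Few inflammatory cytokines were measurable. Il10 had 1 UMI, Il12b 7 and Il23a 14 over all 145 cells. Tnf stood at 143 and 212 CPM in N, 221 and 187 CPM in E, 35.1 and 68.4 CPM in Y and 75.3 and 168 CPM in EY and was not called. Il1b was at 25.6 to 412 CPM in N, E and Y and at 1388 and 768 CPM in EY1 and EY2, not called, with 93 of 129 and 37 of 41 UMIs in 1 cell of each; Il1b was high in neutrophils, whose other markers were raised in the same 2 libraries. Tgfb1, on which Langerhans cells depend, ranged from 128 to 204 CPM and was not called. The chemokine Cxcl16 was at 499 and 410 CPM in N and at 533 to 850 CPM in the other 6 libraries, so that N was lowest, and it was not called either (EY against N, log2 difference 0.70 ± 0.28, SE, edgeR adjusted p = 0.360).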

How the data were processed

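Per the labels and the study's methods, the authors sorted viable tongue epithelial cells, made 10x 3' libraries (the labels name kit v2, the methods v3.1), aligned and counted them with Cell Ranger 5.0.0 on mm10 and deposited a matrix of raw UMI counts per gene and cell for each of 8 libraries, unfiltered by the study's limits on cells. Those limits were applied here, then the limits on Cd207, Cd74, Cd3e, C1q and keratin genes. No doublets were removed. Scrublet (scanpy 1.11.5), an alternative, called 0 to 113 cells per library and no member, and its 0 calls of 7132 barcodes in E1 show that it did not work there.

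UMI counts of members were summed per library and tested with edgeR 4.0.16 (R 4.3.3; filterByExpr, TMM, quasi-likelihood, Benjamini-Hochberg under 0.05), checked on simulated data. Shares were compared by two-sided exact permutation tests (scipy 1.17.1). DESeq2 1.42.0 and other limits were alternatives. The members, lists and tests were chosen with earlier results of these data known. Both EY libraries held fewer than 10 members, so EY against N and the interaction were fitted with a limit of 5 chosen after seeing that.

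Genes named as changed were called, reached 20 CPM in 1 arm, did not overlap between arms, and were at most 5 times higher in keratin-high cells, macrophages, Cd3e+ cells or neutrophils. Ccr7, Il4i1, AA467197 and S100a8 fall outside this rule and are named because they were called. Genes of the 8-library fit with 1 term per transgene were chosen after their values were seen. Nothing in the labels ties a library to more than 1 mouse except N2, and p-values measure the spread between 2 libraries per group. Levels of other cell classes are CPM without TMM scaling. Some genes of the lists are not reported here by name.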

Additional observations from a re-analysis of the deposited data

Results flagged for a closer look

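In the interaction, EY departed from what the E and Y effects add up to (log2) for Il4i1 (-11.08), Ccl22 (-8.92) and Ccr7 (-11.22), by the edgeR test of the interaction term. All 3 were higher in the 9 Ccr7+ cells, which were 4 of 26 cells in E, 4 of 37 in Y, 1 of 11 in EY and none of 71 in N. The shares of E, Y and EY were not shown to differ. N held no Ccr7 UMI and 2 Il4i1 UMIs, so the size of these 2 values depends on counts at or near 0. The cell of EY1 held 6 Ccr7 UMIs, 1 Ccl22 UMI and no Il4i1. Ccl22 was also found in 31 cells without Ccr7, and N held 12 and 72 Ccl22 UMIs. Pooled, its level was 53.9 CPM in the cells without Ccr7 against 2936 CPM in the Ccr7+ cells. The calls of Il4i1 and Ccr7 were lost without N2 or EY1, that of Ccr7 also without EY2, and that of Ccl22 without EY1 or EY2.

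The YAP1S127A effect differed between Langerhans cells and C1q macrophages of the same 6 libraries for Gpr171 (-2.72) and Areg (6.30), by the edgeR test of the difference itself. Areg rests on 3 cells of Y. Gpr171 was found in 12 of 16 and 18 of 21 Langerhans cells of Y, and its call was lost without N2.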

How the results depend on the processing

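Few cells and 2 libraries per group limit every comparison. In the shares, 98 values under other limits kept their direction. None could have crossed the threshold, because the smallest possible p by exact permutation, 0.0286, does not pass after adjustment over 8 share tests. The exceptions were the cycling differences, which reversed without the Xcr1 or Clec9a cells, to -26.2 points for YAP1S127A and 4.92 points for E6-E7. That setting left only N1, N2, E2 and Y2, so it dropped libraries as well as cells. Leaving out each library in turn gave -2.24 to -1.27 points for YAP1S127A and -2.14 to -0.914 for E6-E7 in the share of Ptprc+ keratin-low cells, -0.900 to -0.141 and -0.945 to -0.197 of all cells, 3.25 to 21.4 and -20.0 to -4.58 for cycling cells, and 0.195 to 5.32 and 3.75 to 11.4 for Ccr7+ cells.

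The counts of called genes moved far more, while no named gene changed its direction (485 values kept their call or lack of one and 124 lost the call). With no filter on low counts, Y against N called 93 genes, E against N 69, EY against N 154, the interaction 35 and the difference from macrophages 85. DESeq2 called 9 in Y against N, 38 in EY against N, 5 in the interaction and 1 in the difference from macrophages. Requiring 20 members per library left N1, N2 and Y2 and called 55 in Y against N, with Y2 assumed to vary like N. With at least 5 members per library, the YAP1S127A effect called 21, the E6-E7 effect 2 and E against N 3. With at least 5 Cd207 UMIs, Y against N called 2 and the difference from macrophages 18. E2 was left out there, so E rested on E1 alone and its count is not given. Without Xcr1 or Clec9a cells, Y against N called 16 and E against N 15. Having no limit on C1q was an alternative chosen after seeing the data, and it brought EY2 into the fit of N, E and Y. The YAP1S127A effect then called 9 and the E6-E7 effect 0 (259 at an unadjusted p under 0.05). Y against N called 7, E against N 4 and the interaction 0 (382 at an unadjusted p under 0.05). The causes of these moves were not tested.

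Leaving out 1 library gave 1 (without N2) to 23 (without E1) calls in Y against N, 3 (without N2) to 22 (without Y1) in E against N, 9 (without N2 or EY1) to 45 (without Y2) in EY against N, 0 (without EY1, where edgeR gave 450 at an unadjusted p under 0.05) to 7 (without E1) in the interaction, and 1 (without N2) to 65 (without Y2) in the difference from macrophages. No paired analysis was possible because the replicate numbers were given here in accession order and pair no libraries. EY against N and the interaction could not be fitted with at least 20 members, at least 5 Cd207 UMIs or without Xcr1 or Clec9a cells, nor E against N with at least 20 members.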

Other observations

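H2-Eb1 was low in E2 and Y2 in 3 cell classes: 311 and 151 CPM in Langerhans cells, 563 and 186 CPM in C1q macrophages and 298 and 167 CPM in other dendritic cells. The other 6 libraries held 2815 to 4866 CPM in other dendritic cells. H2-Aa and H2-Ab1 showed no such gap in Langerhans cells, with 11755 and 12077 CPM of the former and 11425 and 12386 CPM of the latter in E2 and Y2.

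Kit, the stem cell factor receptor, was the one gene of the B and mast cell list found in Langerhans cells, in 61 of 145. It was found in none of 13 cells of E1 and in 27 of 47 of N2. Cpa3, Mcpt4 and Fcer1a, which mast cells hold, were at 0.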
